A study of Sus scrofa with 6 samples.

Results

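Complement is a set of plasma and tissue proteins that tag and lyse cells through a chain of cleavages. In the alternative pathway, the protease factor D (CFD) cleaves factor B (CFB) once it is bound to C3b, the large fragment of C3, and the resulting C3 convertase cleaves more C3. Cleavage of C5 then starts the terminal pathway, in which C5b gathers C6, C7, C8 and C9 into the membrane attack complex. Liver supplies most circulating complement, while fibroblasts, macrophages and other tissue cells make components locally, and C3 and CFB are known to be induced by inflammatory cytokines.

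The genes described are C3, CFB and CFD of the alternative pathway and C5 and C7 of the terminal pathway. All probe sets of the Affymetrix Porcine Genome Array, other than the array's controls, to which the platform annotation gives exactly 1 symbol, and that symbol 1 of these 5, were taken. This gave 5 genes of 6765, with 7 probe sets, since CFB and C7 have 2 each. The probe sets were Ssc.61.1.S1_at for C3, Ssc.10460.1.S1_at and Ssc.10460.2.S1_at for CFB, Ssc.11074.1.S1_at for CFD, Ssc.21108.1.S1_at for C5, and Ssc.4633.1.A1_at and Ssc.870.1.S1_at for C7. For CFB and C7, the first of each pair is the brighter.

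The samples were leaflets of the aortic valve from adult female pigs. Collagenase II was used to remove the endothelium, and the leaflets were kept overnight in serum-containing medium before cyclic pressure was applied at 1 Hz for 24 h. Cyclic pressure ran from 0 to 120 mmHg in the hypertensive group and from 0 to 80 mmHg in the normotensive group, with 3 samples each. Leaflets were cultured outside the animal, without flow or circulating blood, and no leaflet free of pressure was analysed here. The labels call the samples biological replicates without tying them to animals, and the p-values cover only how far these samples scatter, in part perhaps for technical reasons.

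Values are MAS5 signals, 1 per probe set and array, already scaled to a common level by the authors (medians of 88.1 to 99.2). Differences are hypertensive minus normotensive on the log2 scale, with the standard error (SE) of the fit. Probe sets were tested where their mean log2 signal corresponded to at least 48.5, called the filter level below. Transcripts of valve interstitial cells were at high signal, with vimentin (VIM) at 18606 to 26412 on hypertensive and 22536 to 24275 on normotensive arrays. Of the liver markers APOA1 passed the filter, and albumin (ALB), transthyretin (TTR) and FGB did not, nor did the adipocyte markers ADIPOQ, FABP4 and LEP. Interstitial markers summed to signals of 49474 to 58605 on hypertensive and 68812 to 70350 on normotensive arrays, with 6 of 6 tested genes lower in mean and groups apart for LUM and POSTN. Their log2 differences were -0.86 for LUM, -0.53 for POSTN, -0.26 for DCN and -1.02 for COL3A1, which ran from -1.74 without hypertensive replicate 2 to -0.22 without replicate 1. Leukocyte markers summed to 766 to 2577 on hypertensive and 1797 to 3364 on normotensive arrays, with 2 of 5 tested genes higher and 3 lower, and CD3E below the filter. PTPRC was at -1.33 with groups apart, CORO1A at 0.79 with groups apart, CD14 at 0.86 and CD163 at -1.12, which ran from -1.75 without hypertensive replicate 2, where it passed (adjusted p = 0.0371), to -0.38 without replicate 1. These are the brightest probe sets, and the further tested ones of CORO1A and CD163 pointed the other way. Endothelial markers summed to 2040 to 3879 on hypertensive and 2489 to 3046 on normotensive arrays, with 1 of 5 tested genes (SELP) higher and 4 lower. CDH5, VWF and KDR did not pass the filter, and the groups overlapped for VWF and KDR. CDH5 was at 68.4, 115 and 84.9 on hypertensive replicates 1, 2 and 3, against 30.3, 12.3 and 40.5 on normotensive replicates 1, 2 and 3. The hypertensive geometric mean of CDH5 was 1.80-fold above the filter level, but CDH5 was not tested. These values are from the brighter of its 2 probe sets, neither of which passed the filter. SELP was at 2.76, and at 2.07 without hypertensive replicate 1, ERG at -0.64, ENG at -0.46 and TEK at -0.37. The part of these cell types in the results below was not tested. In whole leaflets, fewer cells of a type and less RNA per cell cannot be told apart. Hypertensive replicate 2 correlated with the normotensive arrays at a mean of 0.950, against 0.817 for replicate 1 and 0.895 for replicate 3.

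CFD and CFB had higher signal under hypertensive pressure, and C5 and C7 had lower signal. C3 lay at high signal in both groups, which overlapped. No member passed the adjusted threshold of 0.05 in limma (0 of 6 tested probe sets, where 0.0% of all 14399 tested did). At an unadjusted p under 0.05, 4 of the 6 were found, where 16.9% of all tested probe sets were. The groups did not overlap in these 4, of which 2 were higher and 2 lower, where the groups did not overlap in 10.4% of all tested probe sets in the higher and 12.0% in the lower direction. Without hypertensive replicate 2, CFD among the higher and C5 and C7 among the lower probe sets passed the adjusted threshold, as 10.3% of all tested probe sets did in the higher and 14.0% in the lower direction. With array weights 5 of the 6 passed, where 39.2% of all did, and without normotensive replicate 2 no member passed, where 0.00694% of all did. The members were chosen with results of these data known. CFB passed the filter through its hypertensive arrays alone. C5 passed it through its normotensive arrays, since its hypertensive geometric mean of 46.6 lay below the filter level. These counts therefore describe the members and do not support a statement about them.

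**Figure D1:**
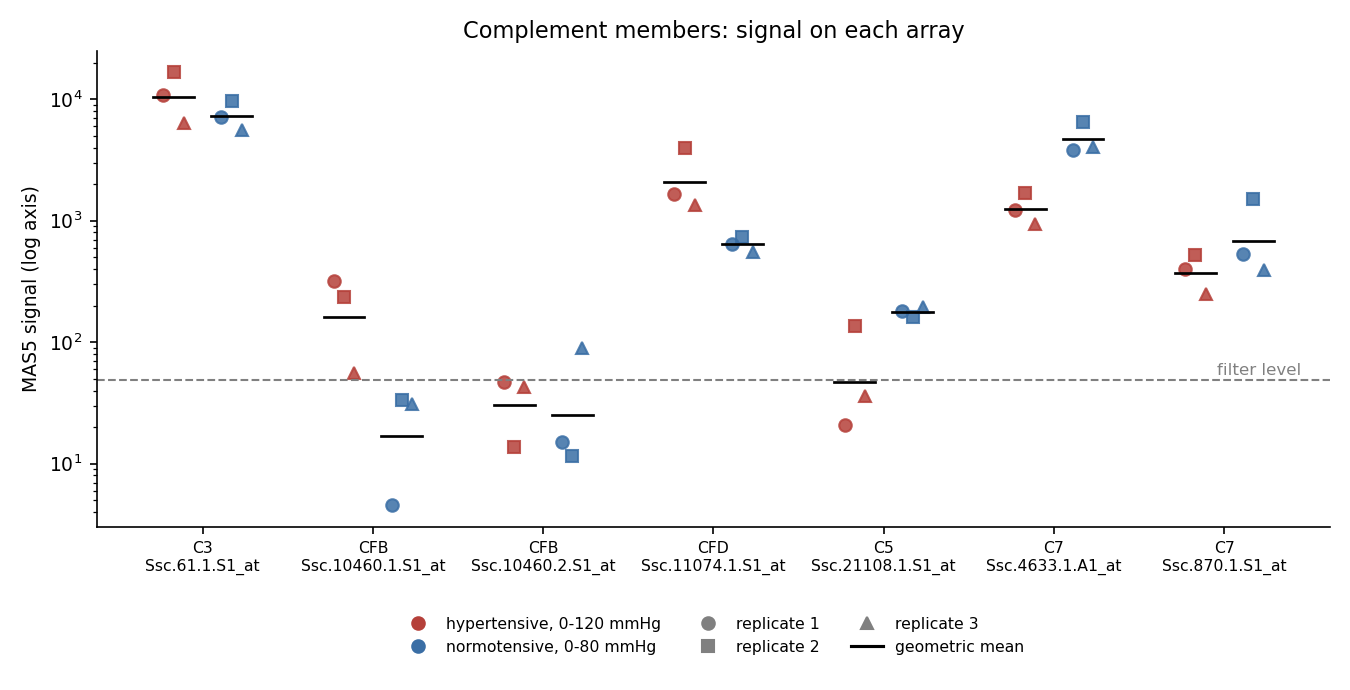
MAS5 signal (log axis) of the 7 member probe sets on each array, hypertensive arrays in red at the left of each pair and normotensive arrays in blue, with the geometric mean of each group as a bar and the filter level of 48.5 as a dashed line. The groups are apart for CFB (Ssc.10460.1.S1_at), CFD, C5 and the brighter C7 probe set, and they overlap for C3 and the others.

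C3, the protein on which all activation routes converge, had signals of 10921, 16622 and 6325 on hypertensive replicates 1, 2 and 3, against 7114, 9722 and 5532 on normotensive replicates 1, 2 and 3. The ranges of the groups overlap, and replicate 2 is the highest and replicate 3 the lowest array in both groups. Means were 11289 ± 5159 and 7456 ± 2116 (SD, n = 3 each). The log2 difference was 0.53 (SE 0.36), with a 95% interval from -0.29 to 1.34 (adjusted p = 0.435). The interval contains both no difference and a signal higher by more than 1 log2 unit, so an equal level in the 2 groups is not shown. With array weights, which count hypertensive replicate 2 least, the difference was 0.0049.

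CFB, the serine protease that forms the alternative C3 convertase, had signals of 319.9, 235 and 55.6 on hypertensive replicates 1, 2 and 3, against 4.57, 33.5 and 30.8 on normotensive replicates 1, 2 and 3. All normotensive arrays were below the filter level, and hypertensive replicate 3 was only just above it. The geometric mean of the hypertensive arrays was 3.32-fold above that level. This is a fold over a cutoff, without an interval, and not a lower limit of the difference. Leaving out hypertensive replicate 1 lowered this fold to 2.36, and leaving out replicate 3 raised it to 5.65. The fitted log2 difference of 3.26 (SE 0.91, 95% interval 1.18 to 5.35, adjusted p = 0.238) rests on signals too low to size it. It was 2.33 without normotensive replicate 1 and 4.03 without hypertensive replicate 3, and it shrank to 1.48 when 64 was added to every signal.

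The further CFB probe set, Ssc.10460.2.S1_at, gave 46.9, 13.7 and 43.1 on hypertensive replicates 1, 2 and 3, against 15.1, 11.6 and 89.2 on normotensive replicates 1, 2 and 3. The highest of these values was on a normotensive array, and the groups overlapped. It did not pass the filter and was not tested, and 5 of its 6 values lay below the filter level. The statement on CFB therefore rests on 1 probe set of 2.

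CFD, the protease also called adipsin that activates CFB, had signals of 1652, 4003 and 1337 on hypertensive replicates 1, 2 and 3, against 638, 738 and 555 on normotensive replicates 1, 2 and 3. Every hypertensive array lay above every normotensive array, and the hypertensive arrays were spread more widely. On the log2 scale the SD was 0.84 between hypertensive and 0.21 between normotensive arrays (n = 3 each). The signal was 3.23-fold higher, with a log2 difference of 1.69 (SE 0.42, 95% interval 0.74 to 2.65, adjusted p = 0.235). Among the tested probe sets, 1.51% had a larger log2 difference. Replicate 2 carried the highest value, and without it the log2 difference was 1.22, and CFD passed (adjusted p = 0.0138), in a fit in which 24.3% of all tested probe sets did. The adipocyte markers named above lay between 11.0 and 86.5 on all arrays, with ADIPOQ higher in mean under hypertensive pressure and FABP4 and LEP lower. The part of adipocytes in the CFD signal was not tested.

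C5, the precursor of the C5a anaphylatoxin and of the C5b that starts the terminal complex, had signals of 20.9, 135 and 35.8 on hypertensive replicates 1, 2 and 3, against 179.5, 162 and 195 on normotensive replicates 1, 2 and 3. The normotensive arrays lay close together, with an SD of 0.13 on the log2 scale, while the hypertensive ones had an SD of 1.39. Hypertensive replicates 1 and 3 were below the filter level and replicate 2 was near the normotensive arrays. The fitted log2 difference was -1.94 (SE 0.63, 95% interval -3.38 to -0.49, adjusted p = 0.262), a signal 3.83-fold lower. Its size depended on replicate 2. Without that array the fitted difference was -2.70 and passed (adjusted p = 0.00431). The normotensive geometric mean was 3.68-fold above the filter level, below which the remaining hypertensive arrays lay. With 64 added to every signal the difference was -1.03.

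C7, which gives the growing complex its hold on the membrane, had signals of 1225, 1699 and 933 on hypertensive replicates 1, 2 and 3, against 3835, 6552 and 4077 on normotensive replicates 1, 2 and 3, by the brighter probe set. All hypertensive arrays were below all normotensive arrays, and all 6 values were far above the filter level. Means were 1286 ± 387 and 4821 ± 1504 (SD, n = 3 each). The signal was 3.75-fold lower, with a log2 difference of -1.91 (SE 0.32, 95% interval -2.63 to -1.18, unadjusted p = 0.000274 and adjusted p = 0.146 in limma). Among the tested probe sets, 1.31% had a lower log2 difference. Leaving out any 1 array kept the difference between -2.13 and -1.66, and it passed without hypertensive replicate 2 (adjusted p = 0.00428).

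The further C7 probe set, Ssc.870.1.S1_at, gave 399.8, 520.1 and 249 on hypertensive replicates 1, 2 and 3, against 529, 1507 and 394 on normotensive replicates 1, 2 and 3. Its means pointed the same way, but the groups overlapped, and normotensive replicate 2 stood well above the rest. Its log2 difference of -0.87 (SE 0.52, 95% interval -2.07 to 0.33, adjusted p = 0.395) was smaller in size. It was -0.29 without normotensive replicate 2, the array on which both C7 probe sets were highest.

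**Figure D2:**
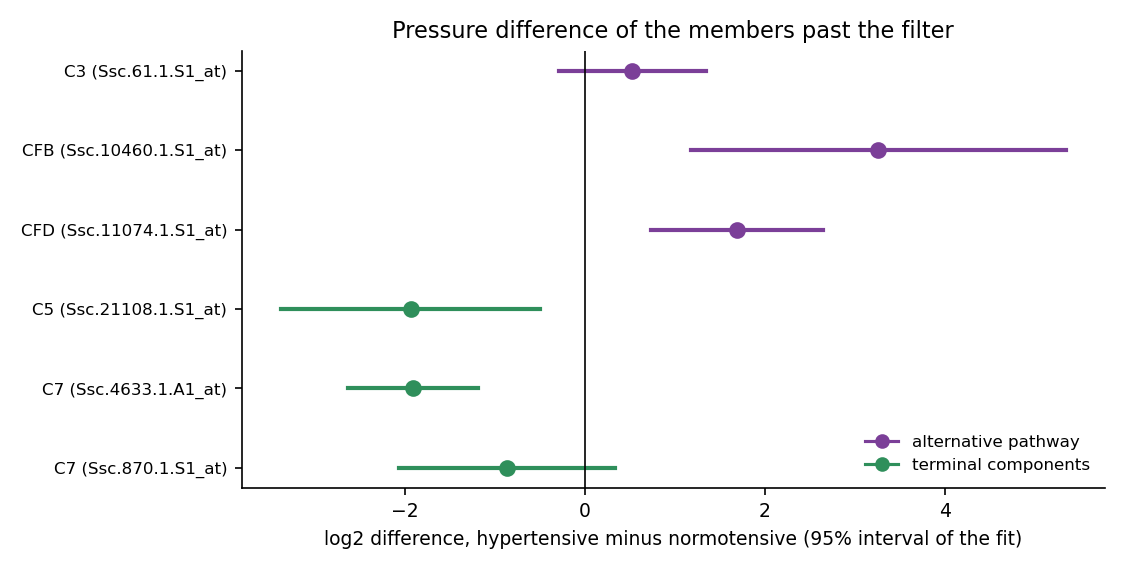
Log2 difference, hypertensive minus normotensive, of the 6 member probe sets past the filter, with the 95% interval of the limma fit, alternative pathway in purple and terminal components in green. The intervals of CFB, CFD, C5 and the brighter C7 probe set lie to one side of 0, at -3.38 to -0.49 for C5 and 0.74 to 2.65 for CFD, and those of C3 and Ssc.870.1.S1_at contain 0.

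Alternative pathway and terminal members were next set against each other within each array, each gene taken by its brighter probe set as log2 signal minus its normotensive mean. A scaling factor of an array cancels in such a difference. CFD minus C7 was 3.30, 4.11 and 3.39 on hypertensive replicates 1, 2 and 3, against 0.28, -0.28 and -0.0050 on normotensive replicates 1, 2 and 3. The hypertensive arrays averaged 3.60 ± 0.44 (SD, n = 3), and the groups were far apart, which for this pair follows from the members' own separation.

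C3 minus C7 was 2.52, 2.66 and 2.13 on hypertensive replicates 1, 2 and 3, against 0.26, -0.06 and -0.19 on normotensive replicates 1, 2 and 3. Its SD between hypertensive arrays was 0.28, below the 0.70 of C3 and the 0.43 of C7 alone, and both genes were highest on replicate 2 and lowest on replicate 3. C3 overlapped between the groups as a signal, and the separation of C3 minus C7 follows from that of C7. No p-value is given for these differences, since the members were chosen with results known.

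CFB minus C7 was 6.19, 5.27 and 4.06 on hypertensive replicates 1, 2 and 3, against -1.59, 0.51 and 1.08 on normotensive replicates 1, 2 and 3. CFB minus C5 was 7.35, 4.21 and 4.05 on hypertensive replicates 1, 2 and 3, against -1.88, 1.13 and 0.75 on normotensive replicates 1, 2 and 3. Both quantities have wide spread within each group. On the normotensive arrays CFB was below the filter level throughout. Between hypertensive replicates 1 and 2, CFB minus C5 differed mainly through C5, which was at -3.09 and -0.40 there, while CFB was at 4.25 and 3.81. With 64 added to every signal their hypertensive means were 3.33 and 2.50, where they were 5.17 and 5.20 without it.

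**Figure D3:**
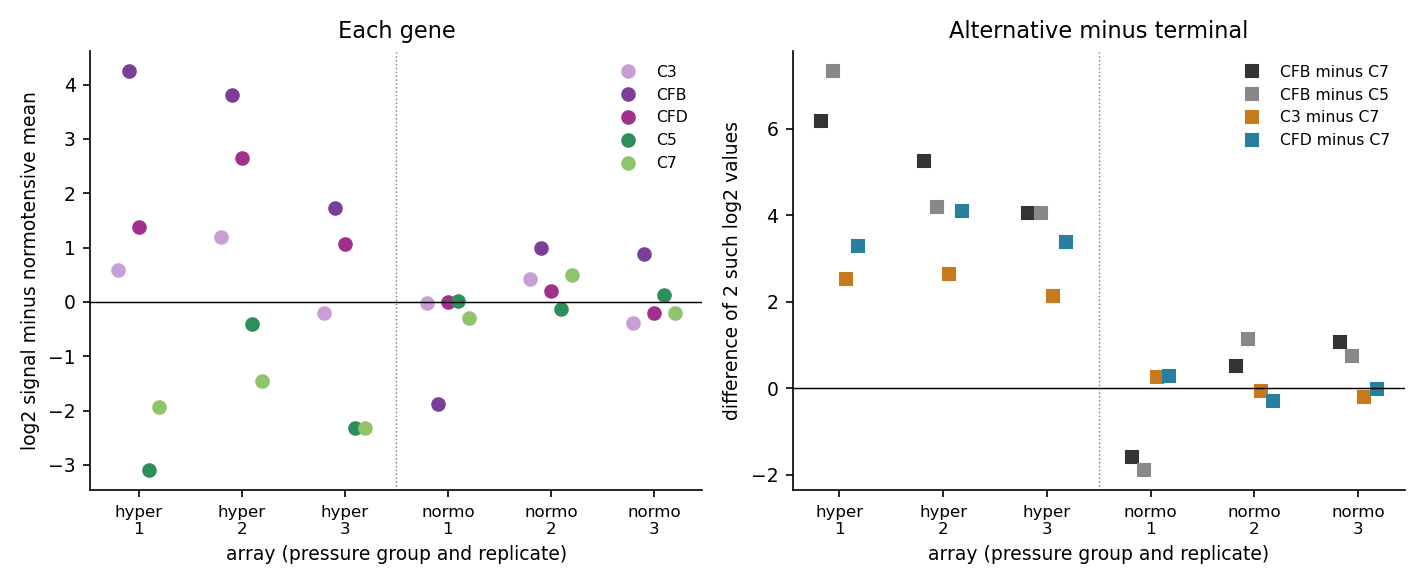
Left, log2 signal minus the normotensive mean of each gene (brighter probe set) on each array, with C3, CFB and CFD in purple and C5 and C7 in green. Right, the difference of 2 such values for 4 pairs. CFD minus C7 is 3.30 to 4.11 on hypertensive and -0.28 to 0.28 on normotensive arrays.

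The order of the hypertensive arrays differed between members. CFB was highest on replicate 1 and lowest on replicate 3. C3, CFD and C7 were highest on replicate 2 and lowest on replicate 3. C5 was highest on replicate 2 and lowest on replicate 1. So on replicate 2, the hypertensive array nearest to the normotensive ones across all tested probe sets, C5 was close to its normotensive level (log2 -0.40), while CFD and C3 were at their farthest from theirs (2.65 and 1.20).

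**Figure D4:**
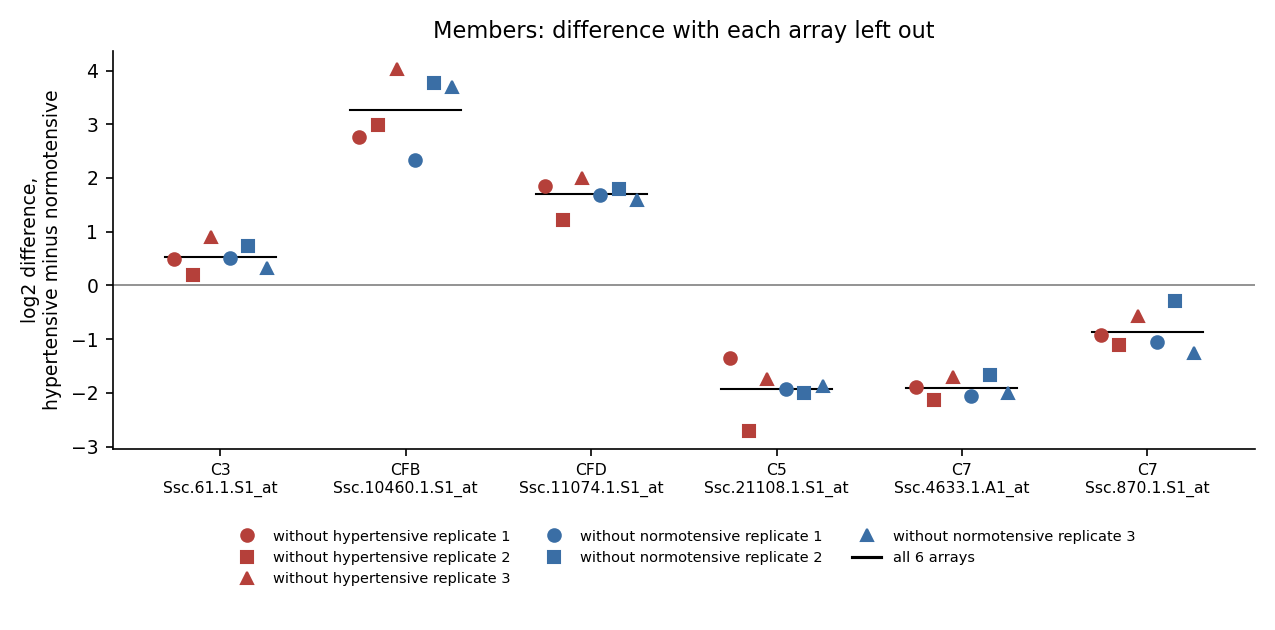
Log2 difference, hypertensive minus normotensive, of the 6 member probe sets past the filter with each array left out in turn, red for hypertensive and blue for normotensive arrays, and the value of all 6 arrays as a bar. No difference changes sign. C5 is at -2.70 without hypertensive replicate 2, and CFB at 2.33 without normotensive replicate 1.

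The wider complement system was described by 5 lists, members included. Of 53 listed genes, 33 had a probe set and 22 passed the filter, of which 11 had a higher and 11 a lower mean under hypertensive pressure. Their median log2 difference was -0.0057, where that of all 5271 tested genes was -0.07 and 45.0% of these were higher. Of the 17 tested genes other than the members, 8 had a higher and 9 a lower mean, with a median of -0.19. Among these, the groups did not overlap in 1 gene, where they did not overlap in 22.5% of all tested probe sets. No complement gene passed the adjusted threshold. At an unadjusted p under 0.05 there were 5 higher and 3 lower genes among the 22, members included, where 7.39% of all tested probe sets were higher and 9.53% lower.

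Of the alternative pathway list, 3 of 4 genes were higher, with a median log2 difference of 1.11. These 3 are the members, chosen with results known, so the median restates that choice. Properdin (CFP), which stabilises the alternative convertase, was the exception at 68.5, 59.3 and 56.3 on hypertensive replicates 1, 2 and 3, against 67.9, 90.6 and 96.1 on normotensive replicates 1, 2 and 3. Its groups overlapped, close to the filter level, with a log2 difference of -0.46 (SE 0.32, adjusted p = 0.455).

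Of the terminal list, 4 genes passed the filter, 3 lower and 1 higher, with a median of -1.12. The lower genes include the members C5 and C7, so this median too rests on genes chosen with results known. C9, the subunit that forms the pore, was opposite to C5 and C7, at 309, 117 and 385 on hypertensive replicates 1, 2 and 3, against 100.4, 118 and 127 on normotensive replicates 1, 2 and 3. C9 was high on hypertensive replicates 1 and 3 and at the normotensive level on replicate 2, so the groups overlapped. Its log2 difference was 1.07 (SE 0.46, adjusted p = 0.291), and without replicate 2 it was 1.59 and passed (adjusted p = 0.00863). C8B, a chain of C8, was near the filter level in both groups, with a log2 difference of -0.34 (SE 0.35, adjusted p = 0.608). C8A and C8G did not pass the filter, and C6 was not matched to a probe set.

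Of the classical and lectin list, 6 genes passed the filter, 4 higher and 2 lower. The C1 proteases were at high signal, with C1R at 15981, 16268 and 10455 on hypertensive replicates 1, 2 and 3, against 8912, 12365 and 6501 on normotensive replicates 1, 2 and 3. Its groups overlapped, with a log2 difference of 0.64 (SE 0.27, adjusted p = 0.291), and that of C1S was 0.42 (SE 0.24, adjusted p = 0.379). The C1q chains C1QA and C1QC, made mostly by macrophages, had differences of -0.94 (SE 0.54, adjusted p = 0.376) and -0.81 (SE 0.47, adjusted p = 0.382). Hypertensive replicate 1 was the lowest array for both, and without it C1QA was at -0.35 and C1QC at -0.44. Of the tested leukocyte markers, CD163, PTPRC and AIF1 (log2 -0.80, groups overlapping) were lower in mean, while CD14 and CORO1A were higher. CD14 was below the filter level on 2 of its normotensive arrays. For both CD163 and CORO1A the further tested probe set pointed the other way. The part of macrophages in the values of C1q was not tested. C2, the classical counterpart of CFB and its direct neighbour in the RefSeq order of pig genes, was at 0.61 (SE 0.43, adjusted p = 0.453), and NELFE, on the other side of CFB, was at -0.69 (adjusted p = 0.278). MBL2, FCN1 and FCN2 did not pass the filter.

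Of the regulators, 6 passed the filter, 3 higher and 3 lower. C4BPA, the alpha chain of the C4b-binding protein that speeds decay of the classical convertase, was the 1 tested complement gene besides the members whose groups did not overlap. It had signals of 1907, 1148 and 2880 on hypertensive replicates 1, 2 and 3, against 4562, 4320 and 4255 on normotensive replicates 1, 2 and 3. The normotensive arrays were close together and every hypertensive array was lower, with a log2 difference of -1.24 (SE 0.33, adjusted p = 0.237). C4BPA passed without hypertensive replicate 2 at a difference of -0.90 (adjusted p = 0.0256). SERPING1, the C1 inhibitor, was at 0.80 (SE 0.31, adjusted p = 0.278). VSIG4, a macrophage receptor that binds C3b, was at -0.98 (SE 0.54, adjusted p = 0.365), and at -0.32 without hypertensive replicate 1. CD59, which blocks the addition of C9, was at -0.50 (SE 0.40, adjusted p = 0.501), and at -0.025 without that array. C4BPB, CD55, VTN, CR1 and CPN1 did not pass the filter. C4BPB pointed the other way from C4BPA. It was at 26.7, 59.0 and 72.6 on hypertensive replicates 1, 2 and 3, against 12.2, 25.9 and 13.2 on normotensive replicates 1, 2 and 3. Its groups were only just apart, with hypertensive replicate 1 and all normotensive arrays below the filter level, and it was not tested.

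Of the receptors, CD93 and the integrin chain ITGB2 passed the filter, with log2 differences of -0.50 (SE 0.32, adjusted p = 0.421) and -0.19 (SE 0.55, adjusted p = 0.870), and the second turned to 0.42 without hypertensive replicate 1. ITGAM did not pass the filter.

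**Figure D5:**
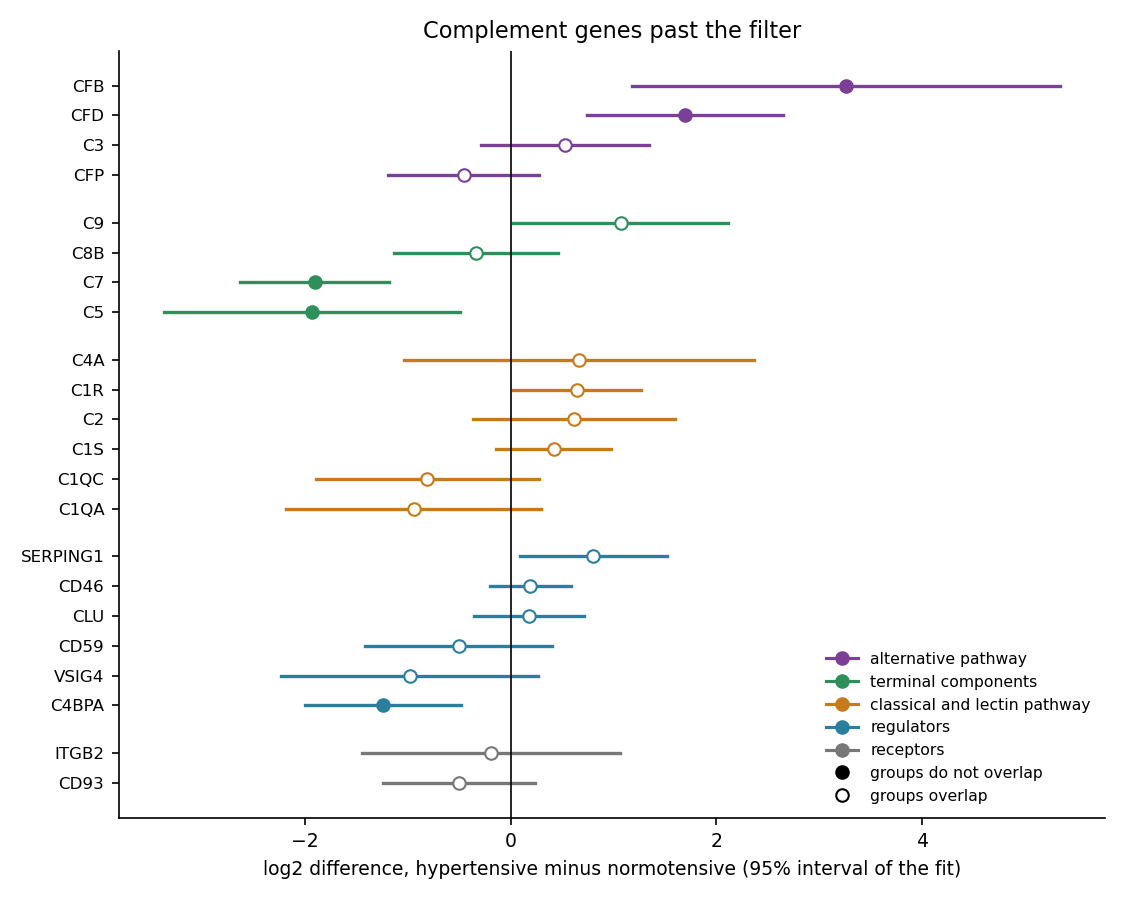
Log2 difference, hypertensive minus normotensive, with the 95% interval of the limma fit, for the 22 complement genes past the filter, grouped by list. Filled points are genes whose groups do not overlap: CFB and CFD above 0, and C5, C7 and C4BPA below 0.

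The genes whose pattern was most like each member were found by the root mean square distance between log2 values over the 6 arrays, each gene centred on its own mean. The 6 arrays of 1 experiment share their scaling, so a small distance is a description only. Nearest to C7 was SH3BGR, at a distance of 0.13, followed by lipoprotein lipase (LPL) at 0.24 and neuroserpin (SERPINI1) at 0.26. Nearest to CFD was the serine protease PRSS23 at 0.20, followed by RHBDF2 at 0.32 and angiotensinogen (AGT) at 0.37. Nearest to C5 were ARL3, WDR19 and MLLT3 at 0.13 to 0.14, and nearest to C3 was CDIPT at 0.09, followed by WDR45 and POLR1D at 0.17 each. CFB had no gene as close, with P-selectin (SELP), a gene of the endothelial list, at 0.92, CXCL12 at 1.08 and CXCL16 at 1.09. Such distances grow with the spread of a gene, and CFB was below the filter level on all normotensive arrays. They therefore do not show that its pattern is distinct.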

How the data were processed

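The study's 6 arrays were analysed, 3 per group. The authors' software was GCOS with MAS5 per the submitters' processing notes, without versions. Deposited values were linear signal intensities for each probe set. The 2% trimmed mean was 500.11 to 500.131 on every array, so the authors had scaled them. MAS5 detection calls were not used here. Precision is limited by the number of arrays.

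Of 24123 rows, 124 controls were left out. Of the other 23999, 10069 had 1 symbol in the platform annotation, 198 had several and 13732 had none. Signals were taken to log2 with no pseudocount. Probe sets at or above the 40th percentile of mean log2 signal were kept, 14399 in all, and the brightest stood for a gene in lists. The comparison was made in R 4.3.3 with limma 3.58.1 (lmFit, eBayes with an intensity trend, 2-sided, no block), adjusted by Benjamini-Hochberg over the kept probe sets at 0.05. An exact permutation test of 3 against 3 cannot go below 0.1 and was not used. Where all arrays of a group lay below the filter level, the fold of the other group's geometric mean over that level is given. The filter level is a percentile cutoff, so such a fold is not a lower limit of the difference. The main fit was tested on simulated data with the same SD for all probe sets and both groups. That does not check it for members whose groups differ in spread, as those of C5 and CFD do.

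The members, lists, tests and rules were chosen with earlier results of these data known. The rule for named genes took all members, up to 4 tested genes of smallest p per list, all list genes below the filter by name, and the 3 nearest genes per member. VIM, C2, NELFE and AIF1 were named after their values were seen, and the signals of CDH5 and C4BPB were also added after they were seen. Neighbouring genes came from the RefSeq gene table of the pig. Promoters and proteins were not analysed here. Alternatives were array weights, a replicate block, no trend, quantile normalization or a median shift, pseudocounts of 16 and 64, a 60th percentile filter or none, and each array left out.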

Additional observations from a re-analysis of the deposited data

How the results depend on the processing

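The count of probe sets past the threshold was 0 with all arrays and moved to 5639 with array weights, and leaving out 1 array gave 0 to 3505 (1 without normotensive replicate 2 and 3505 without hypertensive replicate 2). Array weights were 0.195 for hypertensive replicate 2 and 6.96 for normotensive replicate 1. Member probe sets past the threshold were 5 with array weights and 0 to 3 without 1 array, and complement genes 9 of 22 and 0 to 5. Of all tested probe sets, 39.2% passed with array weights and 24.3% without hypertensive replicate 2, where the highest leave-one-out counts fell. The shares of the complement genes were close to these. With array weights CFB was at 3.35, CFD at 1.21, C5 at -2.27 and C7 at -2.03 and -1.05 on the log2 scale, all past the threshold, as were 39.2% of all tested probe sets. Without 1 array CFD ran from 1.22 to 2.01, C5 from -2.70 to -1.36 and the brighter C7 probe set from -2.13 to -1.66, each past the threshold only without hypertensive replicate 2. With the pseudocount of 64, CFB minus C7 was 3.33 and CFB minus C5 was 2.50. With the 60th percentile filter the terminal list held C7 alone, at -1.91. No tested member changed sign in any of the alternatives. Of the other genes named by the rule above, 6 changed sign under some setting, none of them past the threshold. With array weights SAA2 was at -0.32, CDIPT at -0.10 and POLR1D at -0.25. Leaving out 1 array gave -0.56 to 0.42 for ITGB2, -0.64 to 0.31 for A2M, -0.12 to 0.25 for SAA2, -0.021 to 1.05 for APOA1 and -0.019 to 0.62 for POLR1D. The cause of these moves was not tested.

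Same-numbered arrays correlated in their deviations from the group means at 0.06, 0.07 and 0.23, so the numbers were not taken to pair the samples, although each hypertensive array correlated best with its own number. With the replicate block 0 probe sets passed, and the adjusted p of C7 was 0.104, of CFD 0.141 and of CFB 0.167. Signals near the filter level limit CFB and C5.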

Other observations

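Of a list of cytokines and transcription factors that includes known inducers of C3 and CFB, 10 genes had a probe set, and TNF, IFNG and NFKB1 did not pass the filter. Of the 7 tested, 6 had a higher mean under hypertensive pressure, with groups apart in these 6, where the groups did not overlap in 10.4% of all tested probe sets in the higher direction. None passed the adjusted threshold in limma. The transcription factor CEBPB had signals of 9914, 6385 and 4789 on hypertensive replicates 1, 2 and 3, against 2688, 3302 and 2590 on normotensive replicates 1, 2 and 3, a log2 difference of 1.24 (SE 0.28, adjusted p = 0.222). IRF1 was at 5788, 602 and 1305 on hypertensive replicates 1, 2 and 3, against 287, 284 and 220 on normotensive replicates 1, 2 and 3 (log2 2.66, SE 0.72, adjusted p = 0.237, and 1.76 without hypertensive replicate 1). IL1A was at 2831, 226 and 450 on hypertensive replicates 1, 2 and 3, against 100.3, 132 and 120.0 on normotensive replicates 1, 2 and 3 (log2 2.50, SE 0.80, adjusted p = 0.259). IL6 was at 22566, 297 and 2104 on hypertensive replicates 1, 2 and 3, against 81.5, 101 and 29.0 on normotensive replicates 1, 2 and 3 (log2 5.28, SE 1.34, adjusted p = 0.235). Without hypertensive replicate 1 the differences were 1.45 for IL1A and 3.67 for IL6, and without replicate 2 they were 3.27 and 6.79, and all 4 of these genes passed the threshold there, as 24.3% of all tested probe sets did. Within the hypertensive group, CEBPB, IRF1, IL1A and IL6 were highest on replicate 1, as were CFB and 33.3% of all tested genes. C3 and CFD were highest on replicate 2, as were 45.5% of all tested genes. The list was chosen with results known, and the part of its genes in the complement signals was not tested.

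Of the acute phase list, PTX3, a pattern recognition protein that binds C1q, was at 11744, 206 and 8420 on hypertensive replicates 1, 2 and 3, against 107, 187 and 124 on normotensive replicates 1, 2 and 3 (log2 4.33, SE 1.34, adjusted p = 0.257). Hypertensive replicate 2 was close to the normotensive arrays, and without it PTX3 was at 6.20 and passed (adjusted p = 0.000917), while without hypertensive replicate 1 or 3 it moved by over 1.5 times in fold, to 3.28 at the lowest. HP and SERPINA1 did not pass the filter. ORM1 had a log2 difference of 0.36 (adjusted p = 0.444), SAA2 one of 0.05 and A2M one of -0.19.

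Within the normotensive group, replicate 2 was the highest array in 14 of the 22 complement genes, or 63.6%, where it was highest in 44.5% of all tested genes. Replicate 3 was the lowest in 13 of them, or 59.1%, against 46.7% of all tested genes. In the hypertensive group, replicate 2 was the highest in 12 and replicate 3 the lowest in 12 of the 22, or 54.5% each, where these shares were 45.5% and 30.7% of all tested genes. GAPDH signal at the 3′ end over that at the 5′ end, by the control pair with the lowest ratios, was 3.67, 2.91 and 6.04 on hypertensive replicates 1, 2 and 3 and 3.02, 2.11 and 7.52 on normotensive replicates 1, 2 and 3. By this pair and by a further one it was lowest on replicate 2 and highest on replicate 3 in both groups. By the remaining pair it was 18.1, 23.7 and 29.8 on hypertensive replicates 1, 2 and 3 and 23.3, 17.6 and 37.4 on normotensive replicates 1, 2 and 3, so that replicate 1 was lowest in the hypertensive group. The part of RNA integrity in the complement signals was not tested.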
